A study of Mus musculus with 57 samples.

Results

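Open chromatin was compared between mouse epiblast stem cells (EpiSCs) stimulated for 48 h and unstimulated EpiSCs (0 h), with 1 ATAC-seq library at each time. These are 2 of the 57 samples of a series on Wnt responsiveness and Hox gene activation, of which 32 had a list of peaks and 25, of 4C-seq, were not analysed here. The 48 h cells were wild-type EpiSCs from which IWP2, an inhibitor of Wnt secretion, had been withdrawn and to which CHIR99021 (3 µM) had been added for 48 h. The 0 h cells were wild-type EpiSCs kept in IWP2. Cells of both groups descended from pre-streak epiblast explants and were grown without feeders on fibronectin, with Fgf-basic and Activin A. Each ATAC-seq file was the peak list of 1 library in mm9 coordinates, with 38032 peaks at 48 h and 41309 peaks at 0 h. A 48 h peak that overlapped no 0 h peak by at least 1 bp was called gained, a 0 h peak that overlapped no 48 h peak was called lost, and the others were called shared. With 1 library at each time there was no test of the difference between times. Shares are given with 95% Wilson intervals, which cover counting error only and take peaks as independent, which neighbouring peaks are not.

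ATAC-seq cuts accessible DNA with a transposase, so peaks mark promoters, enhancers and other sites where nucleosomes are displaced. EpiSCs resemble the embryonic epiblast shortly before and during gastrulation. Wnt signalling stabilises beta-catenin, which acts on DNA through TCF/LEF factors, and CHIR99021 imitates this by inhibiting the kinase GSK3. In the posterior embryo Wnt signals are known to induce the primitive streak and the Hox genes. H3K4me3 marks promoters, H3K27ac marks active promoters and enhancers, and Ring1b and H3K27me3 mark chromatin under Polycomb repression.

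The 48 h list and the 0 h list came from different folders, as named inside the files. No source used here says what the folders stand for, and the time and the folder cannot be told apart from these lists alone. The same 2 folders also divided the replicates of whole E6.0 and E7.2 wild-type embryos, with replicate 2 in the folder of the 48 h list and replicate 1 in that of the 0 h list. The share of peaks found in only 1 of those replicates was therefore set beside the EpiSC values. The E7.5 posterior embryo list came from the folder of the 0 h list.

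Gained peaks were 10443 of the 38032 peaks at 48 h (27.5%, 27.01% to 27.91%), and lost peaks were 13949 of the 41309 peaks at 0 h (33.8%, 33.3% to 34.2%). Between the E6.0 replicates, 27.7% of the peaks of replicate 2 and 21.8% of those of replicate 1 had no counterpart. Cut to the 38032 strongest peaks of each list, the EpiSC shares became 29.3% gained and 30.1% lost, against 24.6% and 23.9% for replicates 2 and 1 of E6.0 at their own equal length. Between the E7.2 replicates the full lists differed much in length, at 72433 and 33881 peaks for replicates 2 and 1, of which 57.3% and 3.94% had no counterpart, and the shares at equal length were 24.5% and 19.6%. With each pair at its own equal length, both EpiSC shares were thus higher than each of the 4 replicate shares. These lengths differed, at 38032 peaks for the EpiSCs, 57569 for E6.0 and 33881 for E7.2. At a common length, given below, the excess was smaller. On the full lists the gained share lay below that of E6.0 replicate 2.

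Among strong peaks, 48 h and 0 h differed more than the replicates of E6.0 did, on full lists of unlike length and by less at a common length. Peaks were ranked by the −log10 p value that the authors' peak caller gave them, and each list was divided into quintiles, 5 groups of equal size. The E6.0 lists were longer than the EpiSC lists, at 61933 and 57569 peaks for replicates 2 and 1. A strong peak there therefore had more peaks to overlap in the partner list, and the effect of this on the quintiles was not tested. In the strongest quintile, 70 of 7606 peaks at 48 h were gained (0.920%, 0.729% to 1.16%) and 103 of 8261 peaks at 0 h were lost (1.25%, 1.03% to 1.51%). The E6.0 replicates had 0.153% (0.0982% to 0.239%) and 0.0521% (0.0239% to 0.114%) without a counterpart in that quintile, for replicates 2 and 1. In the second quintile the shares were 9.87% gained and 11.5% lost, against 4.69% and 4.31% in the E6.0 replicates. In the weakest quintile they were 57.9% gained and 70.6% lost, against 63.8% and 54.0%. The gained share of the weakest quintile therefore lay between the values of the E6.0 replicates, while in the first 2 quintiles gained and lost shares both exceeded them, and their intervals did not overlap. Among the 5000 strongest peaks, 27 at 48 h (0.54%) and 20 at 0 h (0.4%) had no counterpart in the other full list, against 5 (0.1%) and 0 (0%) for E6.0 replicates 2 and 1, and 4 (0.08%) and 9 (0.18%) for those of E7.2. With every list cut to its 20000 strongest peaks, a common length, the shares were 20.8% gained and 21.0% lost. Those of replicates 2 and 1 were 18.7% and 18.5% at E6.0 and 18.5% and 16.5% at E7.2. In the E7.2 lists, of unequal length, replicates 2 and 1 had 2.26% and 0.148% without a counterpart in the strongest quintile and 34.1% and 0.280% in the second, and these values bracket those of the EpiSCs.

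**Figure D1:**
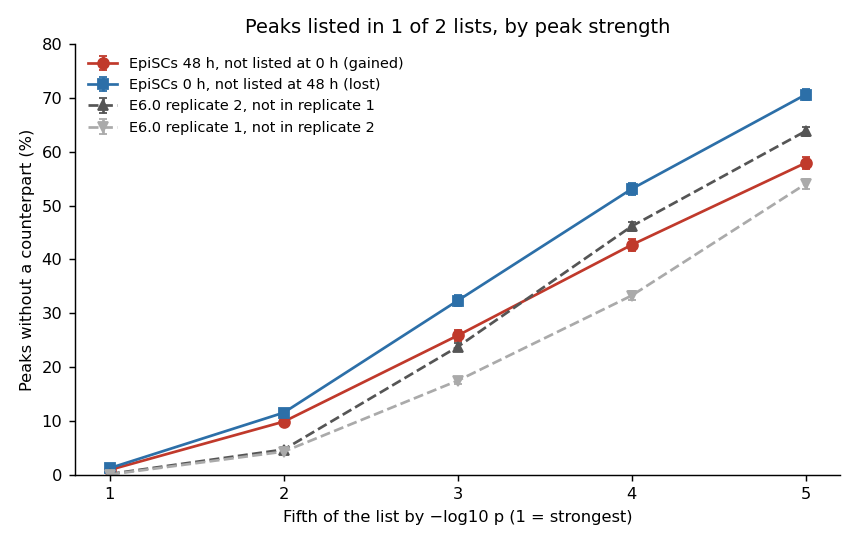
Percent of peaks without a counterpart (vertical axis) in each quintile of a list by −log10 p (horizontal axis, 1 the strongest), for EpiSCs at 48 h and 0 h and for the E6.0 replicates; bars are 95% Wilson intervals. In the second quintile the EpiSC shares, 9.87% and 11.5%, lie above those of the replicates, 4.69% and 4.31%, and in the weakest quintile the gained share of 57.9% lies between the replicates. The E6.0 lists were longer than the EpiSC lists.

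Gained and lost peaks were shorter than shared peaks. The median was 264 bp for gained peaks (quartiles 190 and 395 bp) and 272 bp for lost peaks (201 and 384 bp), and at equal list length it was 266 bp for gained and 292 bp for lost peaks. Shared peaks had a median of 635 bp in the 48 h list and of 692 bp in the 0 h list. Of the 48 h peaks under 200 bp, 56.6% were gained, and the share was 43.7% from 200 to 400 bp, 21.6% from 400 to 800 bp, 3.39% from 800 to 1600 bp and 0.421% above that. Of the 0 h peaks, 70.0% were lost in the shortest of these classes, then 55.7%, 25.2%, 3.70% and 0.536%. The same lean towards short peaks was seen between the E6.0 replicates, where 62.7% of the peaks under 200 bp of replicate 2 and 51.3% of those of replicate 1 had no counterpart. Length goes with strength, so lengths were also compared within quintiles. In the strongest quintile gained peaks had a median of 802.5 bp and shared 48 h peaks of 1167 bp, and lost peaks had a median of 806 bp and shared 0 h peaks of 1190 bp. In the weakest quintile the medians were 205 bp for gained and 237 bp for shared 48 h peaks, and 224 bp for lost and 262 bp for shared 0 h peaks. Of gained peaks 9.04% lay within 1 kb of a 0 h peak, and of lost peaks 8.14% lay within 1 kb of a 48 h peak.

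Few gained and lost peaks lay at promoters as marked at 0 h. The H3K4me3 list came from EpiSCs labelled Wnt3KO, a different genotype from the ATAC-seq cells, and held 16287 regions. Of gained peaks 2.04% (1.79% to 2.33%) overlapped one, of lost peaks 3.95% (3.64% to 4.29%), and of shared peaks 53.9% at 48 h and 53.8% at 0 h. The whole lists had 39.6% at 48 h and 37.0% at 0 h. Peaks found in only 1 of the E6.0 replicates had values as low, 2.95% for replicate 2 and 1.40% for replicate 1. The gap to shared peaks was also present within each quintile, although strength was not matched further inside a quintile. In the weakest quintile, 3.13% of gained and 5.88% of lost peaks overlapped H3K4me3, against 19.9% of shared 48 h and 16.4% of shared 0 h peaks. Shared peaks of the second quintile, which ranked below all peaks of the strongest, had 66.9% at 48 h and 61.7% at 0 h. In the strongest quintile, 0 of 70 gained peaks (interval up to 5.20%) and 1 of 103 lost peaks overlapped H3K4me3, against 94.2% of shared 48 h peaks and 91.5% of shared 0 h peaks. The median distance to the nearest H3K4me3 region was 58.1 kb for gained and 59.4 kb for lost peaks, and 16.8% and 18.3% of them lay within 10 kb of one, against 64.0% of shared 48 h peaks. Seen from the promoters, 94.1% of the H3K4me3 regions were open at both times, 0.694% at 48 h only and 2.27% at 0 h only. The 72 h H3K4me3 list of the same Wnt3KO line overlapped 2.84% of gained and 3.63% of lost peaks, against 40.2% of all 48 h and 37.1% of all 0 h peaks.

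Polycomb regions were a small part of every class. Regions of Ring1b, a ubiquitin ligase of Polycomb repressive complex 1, and of H3K27me3 were taken from the 0 h Wnt3KO lists as those of replicate 1 that overlapped replicate 2, which left 1126 and 3543 regions. Ring1b overlapped 77 gained peaks (0.737%, 0.590% to 0.920%), 119 lost peaks (0.853%, 0.713% to 1.02%) and 1.98% of shared 48 h peaks. Its share was 1.64% of all 48 h and 1.62% of all 0 h peaks. H3K27me3 overlapped 111 gained peaks (1.06%, 0.883% to 1.28%), 190 lost peaks (1.36%, 1.18% to 1.57%) and 3.38% of shared 48 h peaks. Its share was 2.75% of all 48 h and 2.85% of all 0 h peaks. The order of gained and lost depended on list length. At equal length Ring1b overlapped 1.04% of gained and 0.481% of lost peaks, and H3K27me3 overlapped 1.39% of gained and 0.918% of lost peaks, so no order is read from them. Of the Ring1b regions 4.71% were open at 48 h only, 9.95% at 0 h only and 37.1% at neither time, on the full lists. Of the H3K27me3 regions 4.06% were open at 48 h only, 9.51% at 0 h only and 59.2% at neither time.

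Gained and lost peaks differed in H3K27ac and in embryonic open chromatin, which played no part in their definition. In wild-type EpiSCs at 0 h, H3K27ac overlapped 0.958% of gained peaks (0.788% to 1.16%) and 6.93% of lost peaks (6.52% to 7.37%). After 24 h of CHIR99021 the order was the opposite, with 18.3% and 16.3% of gained peaks in replicates 1 and 2 and 9.51% and 8.17% of lost peaks. All of these shares were below those of the whole lists, which were 47.9% and 46.3% of all 48 h peaks and 42.6% and 41.2% of all 0 h peaks in the 24 h replicates, and 23.97% of all 48 h peaks and 24.3% of all 0 h peaks for H3K27ac at 0 h. The 24 h lists were about as long as each other, at 29056 and 27422 regions, and longer than the 0 h list of 14453 regions, so levels are compared between classes within a list and not between lists. Peaks found in only replicate 2 of E6.0 overlapped the 24 h lists at 9.18% and 8.18%, and those found in only replicate 1 at 4.23% and 3.69%. In the strongest quintile, H3K27ac at 24 h lay on 44 and 40 of 70 gained peaks, and on 23 and 16 of 103 lost peaks. At 0 h it lay on 0 of those gained peaks and on 60 of those lost peaks.

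The H3K27ac lists of Wnt3KO EpiSCs gave the same order of gained against lost at the ends of their time course. They overlapped 0.488% of gained peaks without CHIR99021 (0 h), 0.536% after 6 h, 0.642% after 12 h and 0.814% after 72 h. Of lost peaks they overlapped 1.84%, 1.07%, 1.05% and 0.409% in the same order. Shared 48 h peaks showed no such course, with 33.1%, 26.5%, 30.7% and 29.4% at these times. Both classes were far below the whole lists, with 24.2%, 19.3%, 22.4% and 21.5% of all 48 h peaks and 22.9%, 18.2%, 20.9% and 19.7% of all 0 h peaks. These lists held 12135, 10225, 11636 and 10161 regions, 1 library each, and the course was not tested.

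**Figure D2:**
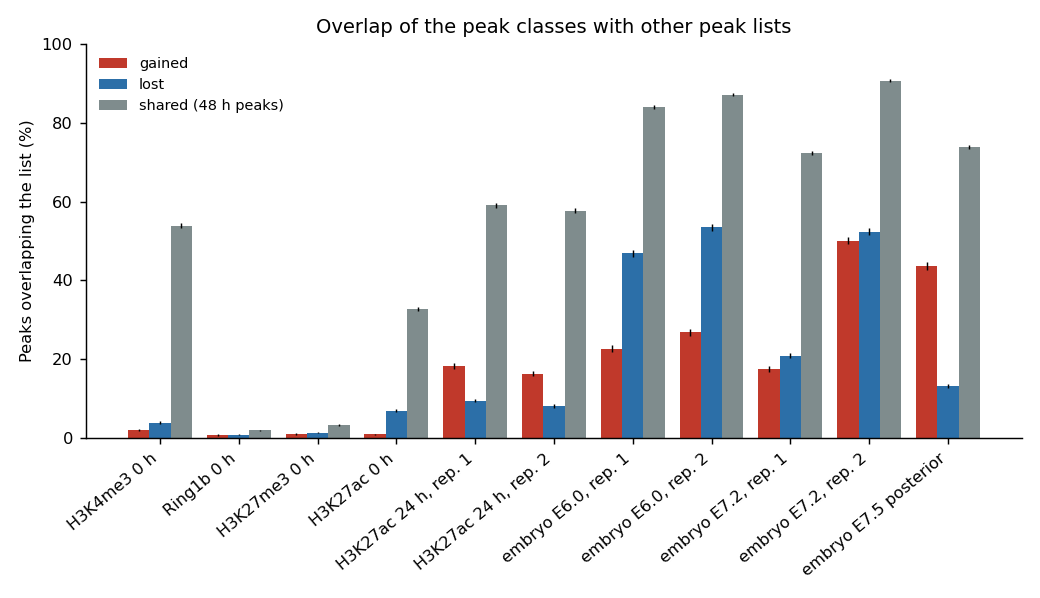
Percent of gained, lost and shared 48 h peaks (vertical axis) that overlapped each of 11 other peak lists (horizontal axis), with 95% Wilson intervals; H3K4me3, Ring1b and H3K27me3 are from Wnt3KO EpiSCs, H3K27ac from wild-type EpiSCs. Gained peaks stand above lost peaks for H3K27ac at 24 h and for the E7.5 posterior (43.7% against 13.2%), and below them for H3K27ac at 0 h and for both E6.0 replicates.

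The E7.5 posterior list overlapped gained peaks more often than lost peaks, and both E6.0 lists overlapped lost peaks more often than gained peaks. The E7.5 posterior list overlapped 43.7% of gained peaks (42.7% to 44.6%) and 13.2% of lost peaks (12.7% to 13.8%). The E6.0 lists overlapped 22.7% and 26.8% of gained peaks in replicates 1 and 2, and 46.9% and 53.5% of lost peaks. Both classes were below their whole lists in all 3, since the E7.5 posterior list overlapped 65.5% of all 48 h and 53.6% of all 0 h peaks, and the E6.0 lists overlapped 67.2% and 70.6% of all 48 h and 71.5% and 75.8% of all 0 h peaks. The order of the classes was the same in replicate 1, from the folder of the 0 h list, and in replicate 2, from that of the 48 h list. At equal EpiSC list length the E7.5 posterior shares were 43.8% of gained and 13.3% of lost peaks. The E7.2 whole embryos separated the classes little, with 17.5% and 50.1% of gained and 20.9% and 52.4% of lost peaks in replicates 1 and 2. Peaks found in only 1 replicate of E6.0 overlapped the E7.5 posterior list at 9.56% for replicate 2 and 11.4% for replicate 1. Taken by peak, 26.8% of gained peaks were open at E7.5 posterior and in neither E6.0 list, against 1.73% of lost peaks. Open in both E6.0 lists and not at E7.5 posterior were 6.79% of gained and 31.0% of lost peaks. In none of the 5 embryo lists were 32.2% of gained and 31.8% of lost peaks, against 5.19% of shared 48 h peaks.

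The gap between gained and lost peaks was wider in the strongest than in the weakest quintile. In the strongest quintile, 63 of 70 gained peaks (90.0%) and 13 of 103 lost peaks (12.6%) were open at E7.5 posterior. By quintile, from strong to weak, the gained share there was 90.0%, 79.0%, 57.8%, 40.4% and 33.0%, while the lost share stayed between 12.6% and 14.9%. Shared peaks also had lower shares at E7.5 posterior in the weaker quintiles, with 99.8%, 90.5%, 62.3%, 44.8% and 36.9% of shared 48 h peaks and 98.2%, 84.5%, 57.8%, 46.2% and 44.1% of shared 0 h peaks. For E6.0 replicates 1 and 2, the strongest quintile had 27.1% and 37.1% of gained peaks and 90.3% and 94.2% of lost peaks. In the weakest quintile these were 21.6% and 24.7% of gained peaks and 37.6% and 43.0% of lost peaks.

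**Figure D3:**
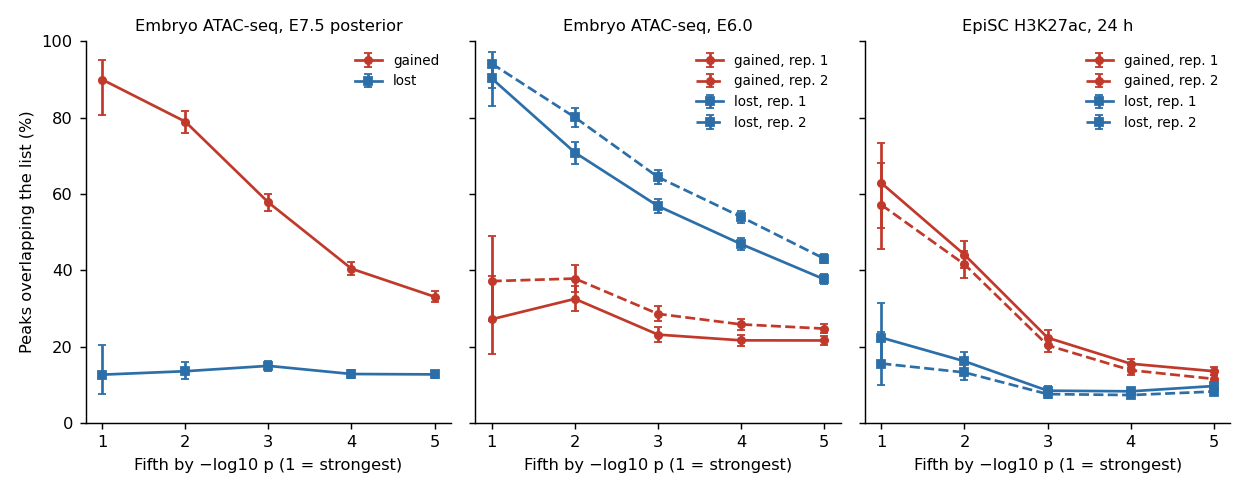
Percent of gained and lost peaks (vertical axis) that overlapped the E7.5 posterior list, the E6.0 lists and the 24 h H3K27ac lists, by quintile of −log10 p in the EpiSC list (horizontal axis, 1 the strongest); bars are 95% Wilson intervals and dashed lines are replicate 2. At E7.5 posterior the gained share runs from 90.0% to 33.0% across the quintiles and the lost share stays at 12.6% to 14.9%; at E6.0 lost peaks lie above gained peaks in every quintile of both replicates.

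The peaks with the highest fold enrichment, a ratio to local background given by the authors' peak caller, are examples of both classes. The 3 leading gained peaks, at chr9:3258606-3258941 (175-fold), on unplaced sequence (114-fold) and at chr9:24346468-24346609 (85.4-fold), carried H3K27ac in none of the 3 wild-type lists, and the last 2 of them were 142 bp long, the shortest length in the list. All 3 were also listed in both E7.2 replicates. The first and the third were listed in both E6.0 replicates as well, and the second in E6.0 replicate 2. Only the third was listed at E7.5 posterior. The next 2, at chr15:93802824-93804219 (54.0-fold, 1396 bp) and chr9:71682658-71683905 (50.7-fold, 1248 bp), carried H3K27ac in both 24 h lists and not at 0 h, and were open at E7.5 posterior and in neither E6.0 list. The 5 leading lost peaks had a fold enrichment of 41.5 to 49.8 and lengths of 691 to 1175 bp. They lay at chr14:78688592-78689430, chr4:69484912-69486086, chr16:79296703-79297393, chr6:141641776-141642676 and chr4:144694669-144695434. All 5 carried H3K27ac at 0 h, were open in both E6.0 lists and were not listed at E7.5 posterior. The second of them lay 0.171 kb from a 48 h peak, and the others lay 6.25 to 128 kb from one. No genes are named for these peaks, because an mm9 annotation was not used here.

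Gained peaks were more often crowded into the same stretches than lost peaks. The genome was divided into fixed tiles of 100 kb. Tiles with at least 3 gained peaks held 26.8% of gained peaks (25.9% to 27.6%), and tiles with at least 3 lost peaks held 22.0% of lost peaks (21.3% to 22.7%), although lost peaks were the more numerous. Tiles with at least 5 numbered 108 for gained and 63 for lost peaks, with 6.12% and 2.46% of the peaks, and 12 tiles had at least 8 gained peaks against 4 with at least 8 lost peaks. At equal list length the shares in tiles of 3 or more were 28.5% for gained and 16.8% for lost peaks. With 200 kb tiles they were 44.9% and 44.4%, with intervals that overlapped. Shared 48 h peaks were more crowded, with 57.5% in tiles of 3 or more. Between the E6.0 replicates this share was 38.9% for peaks found in only replicate 2 and 19.5% for those found in only replicate 1. At E7.2, with lists of unequal length, it was 66.7% and 15.7%. Larger differences than that between gained and lost peaks thus occurred between replicates. There too the higher share was in the folder of the 48 h list. In all, 50 tiles had at least 5 gained and no lost peaks, and 25 tiles at least 5 lost and no gained peaks.

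**Figure D4:**
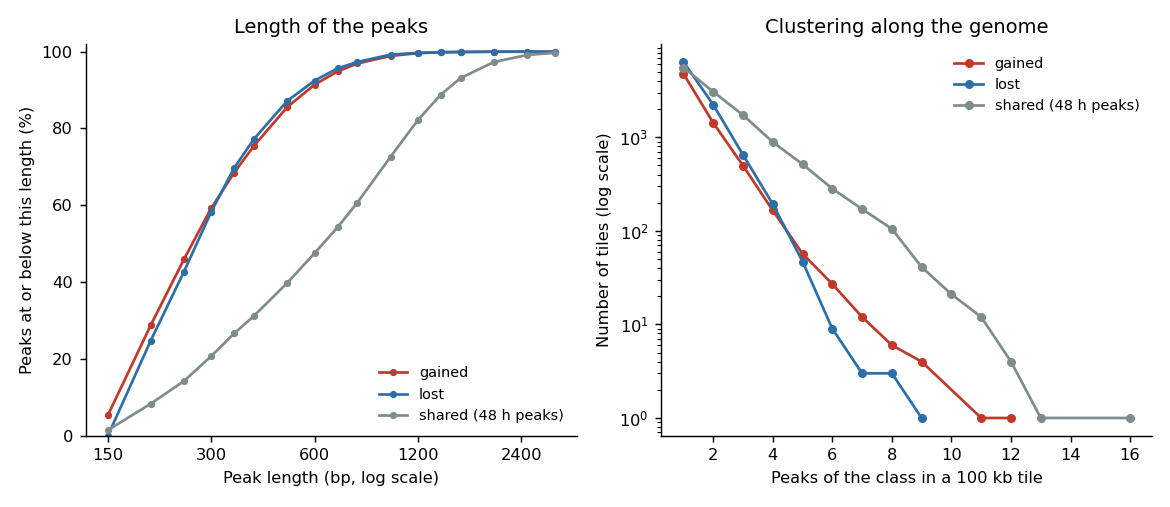
Left, the percent of gained, lost and shared 48 h peaks (vertical axis) at or below each length in bp (horizontal log axis); right, the number of 100 kb tiles (vertical log axis) that held each number of peaks of a class (horizontal axis). The gained and lost length curves lie together, with medians of 264 and 272 bp, and left of the shared curve, and gained peaks reach 12 in a tile against 9 for lost peaks.

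The 2 tiles with most gained peaks lay on Hox clusters. The tile at chr2:74500001-74600000, in the HoxD window, held 12 gained, 2 lost and 8 shared peaks. The tile at chr11:96100001-96200000, in HoxB, held 11 gained, 2 lost and 5 shared peaks. Next came chr4:9000001-9100000 with 9 gained, 0 lost and 3 shared peaks. The tile at chr15:102800001-102900000, which overlaps the HoxC window, held 9 gained, of which 7 lay in that window, 1 lost and 6 shared peaks, and that at chr5:14900001-15000000 held 9 gained, 4 lost and 5 shared peaks. Most lost peaks fell in chr18:25700001-25800000 with 2 gained, 9 lost and 1 shared, chr4:82000001-82100000 with 0, 8 and 0, and chr8:74300001-74400000 with 3, 8 and 1. The tile at chr11:3000001-3100000 was high in every class, with 9 gained, 8 lost and 12 shared peaks, and chr4:151700001-151800000 had 0 gained, 7 lost and 1 shared.

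Hox genes encode the transcription factors that pattern the body axis and are activated in order from the 3′ end of each cluster. Across the 4 clusters, 42 of 82 peaks at 48 h were gained (51.2%, 40.6% to 61.7%), against 27.5% of the whole list. Lost peaks were 12 of 52 at 0 h (23.1%, 13.7% to 36.1%), against 33.8% of the whole list. At equal list length the shares were 54.9% and 13.95%. HoxA had 6 gained of 17 peaks and 2 lost of 13, and HoxB had 15 gained of 27 and 6 lost of 18. HoxC had 9 gained of 16 and 2 lost of 9, and HoxD had 12 gained of 22 and 2 lost of 12. The gained share was above that of the whole list in each of the 4 clusters, by least in HoxA (35.3%). The lost share was below that of the whole list clearly in HoxA, HoxC and HoxD only. In HoxB it was 33.3%, about equal to the 33.8% of the whole list. Single clusters held few peaks, and their differences were not tested. With each cluster divided into 3 equal segments from its 3′ end, gained peaks numbered 18, 21 and 3, lost peaks 5, 3 and 4, and all 0 h peaks 23, 17 and 12. The 3′ and middle segments held 39 of the 42 gained peaks, and also most Hox peaks of both lists. They held 71 of all 82 peaks at 48 h, 32 of the 40 shared 48 h peaks and 40 of the 52 peaks at 0 h. A placement particular to gained peaks is not read from these counts.

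The gained Hox peaks with the highest fold enrichment were in HoxD, at chr2:74572416-74573145 (14.1-fold, 730 bp) and chr2:74559040-74559587 (11.6-fold, 548 bp). The first of these was in the strongest quintile of the 48 h list. In HoxA the highest was at chr6:52126772-52127476 (11.2-fold), in HoxB at chr11:96211184-96211783 (9.94-fold) and in HoxC at chr15:102762190-102762514 (8.61-fold). Of the 42 gained peaks, 20 were open at E7.5 posterior (47.6%, 33.4% to 62.3%), an interval that holds the 43.7% of all gained peaks. In E6.0 replicates 1 and 2 there were 6 and 9 (14.3% and 21.4%, against 22.7% and 26.8% of all gained peaks). H3K27ac lay on 13 and 9 in the 24 h replicates (31.0% and 21.4%, against 18.3% and 16.3%) and on 0 at 0 h (against 0.958%). The intervals of the 2 E6.0 shares held the shares of all gained peaks, that of H3K27ac in 24 h replicate 1 began above it, at 19.1%, and that in replicate 2 held it. Of the 12 lost peaks, 0 were open at E7.5 posterior (interval up to 24.2%, against 13.2% of all lost peaks) and 5 in each E6.0 replicate (41.7%, against 46.9% and 53.5%). H3K27ac lay on 4 of the lost Hox peaks in each 24 h replicate (33.3%, 13.8% to 60.9%), against 9.51% and 8.17% of all lost peaks. That interval began above both shares, so more H3K27ac at 24 h was not particular to gained Hox peaks. At 0 h it lay on 1 of the lost Hox peaks (8.33%, against 6.93% of all lost peaks). Ring1b at 0 h lay on 4 of the gained (9.52%, against 0.737% of all gained peaks) and 2 of the lost peaks (16.7%, against 0.853% of all lost peaks). H3K27me3 at 0 h lay on 0 of the gained (interval up to 8.38%, against 1.06% of all gained peaks) and 0 of the lost Hox peaks (up to 24.2%, against 1.36% of all lost peaks). Both intervals held the share of the class, so a lack of H3K27me3 particular to Hox peaks is not read from them. H3K4me3 at 0 h lay on 4 of the gained (9.52%, against 2.04%) and 5 of the lost (41.7%, against 3.95%). Within 1 kb of a peak of the other list lay 11 of the gained (26.2%) and 7 of the lost Hox peaks (58.3%), against 9.04% of all gained and 8.14% of all lost peaks. In HoxD, a lost peak ended at chr2:74565640 and a gained peak began at chr2:74565659.

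Single genes were taken from lists for the epiblast, the Wnt response, the primitive streak and mesoderm, the endoderm and the neural lineage, with all peaks within 50 kb of the start, which was placed, like the Hox windows, from knowledge of mm9 without an annotation file. Around 6 Wnt response genes, 17 of 45 peaks at 48 h were gained (37.8%, 25.1% to 52.4%) and 6 of 34 at 0 h were lost (17.6%, 8.35% to 33.5%). Around 6 epiblast genes, 10 of 37 were gained (27.03%, 15.4% to 43.0%) and 19 of 44 were lost (43.2%, 29.7% to 57.8%). Both intervals for gained peaks hold the share of the whole list, 27.5%. The interval of the lost share around Wnt response genes ended just below the share of the whole list, 33.8%, and that around epiblast genes included it. Around 6 streak and mesoderm genes the counts were 13 gained of 42 and 10 lost of 38, near the shares of the whole list. Most gained and lost peaks around the listed genes were in quintile 4 or 5, as were most of the whole lists. In the weakest quintile 63.8% and 54.0% of the peaks of E6.0 replicates 2 and 1 had no counterpart either, so single counts below are weak evidence.

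Among Wnt response genes, Axin2, a negative regulator of the pathway, had 5 gained of 8 peaks and 2 lost of 5. The gained peak of Axin2 at chr11:108759057-108759474 was 8.24-fold, in quintile 3. Its other gained peaks were in the weakest quintile, at 3.86-fold to 4.26-fold. Cdx2, a caudal-type factor of the posterior embryo, had 5 gained of 10 and 1 lost of 6, and its highest gained peak, at chr5:148120748-148121121 (8.05-fold), was near the start. Sp5, a zinc finger factor induced by Wnt, had 3 gained of 10 and 0 lost of 8, and Evx1, a homeobox gene of the streak beside HoxA, had 1 gained of 5 and 0 lost of 4. Lef1, the DNA-binding partner of beta-catenin, had 1 gained of 7 and 1 lost of 6, and Wnt3a, a Wnt ligand of the posterior embryo, had 2 gained of 5 and 2 lost of 5.

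Among epiblast genes, Otx2, a homeobox factor of the epiblast and anterior brain, had 1 gained of 4 and 5 lost of 8 peaks. Sox2, a pluripotency and neural factor, had 3 gained of 9 and 5 lost of 9. Nodal, the ligand of the pathway that Activin A stimulates, had 2 gained of 8 and 4 lost of 9, of which the lost peak at chr10:60881880-60882451 (17.3-fold) was the highest. Fgf5, a growth factor of the epiblast, had 0 gained of 2 and 2 lost of 4, the higher at chr5:98684716-98685323 (14.5-fold). Pou5f1, which encodes Oct4, had 2 gained of 6 and 2 lost of 6, and Nanog, another pluripotency factor, had 2 gained of 8 and 1 lost of 8.

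Streak and mesoderm genes varied among themselves. T, which encodes Brachyury, had 4 gained of 7 and 1 lost of 4 peaks, the highest gained one at chr17:8589172-8589707 (11.8-fold) and the lost one at chr17:8622451-8623135 (11.4-fold). Fgf8, a growth factor of the streak, had 5 gained of 11 and 0 lost of 5, the highest at chr19:45809098-45810317 (15.5-fold). Eomes, a T-box factor of early streak and endoderm, had 1 gained of 5 and 3 lost of 7, Gsc, an anterior streak homeobox gene, 2 of 7 and 3 of 8, and Mixl1, a homeobox gene of mesendoderm, 0 of 2 and 2 of 4. Tbx6, a factor of paraxial mesoderm, had 1 gained of 10 and 1 lost of 10. Of the endoderm factors, Foxa2 had 0 gained of 2 and 3 lost of 5, and Sox17 had 0 gained of 4 and 0 lost of 3. Pax6, a neural factor, had 4 gained of 9 and 4 lost of 8.

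**Figure D5:**
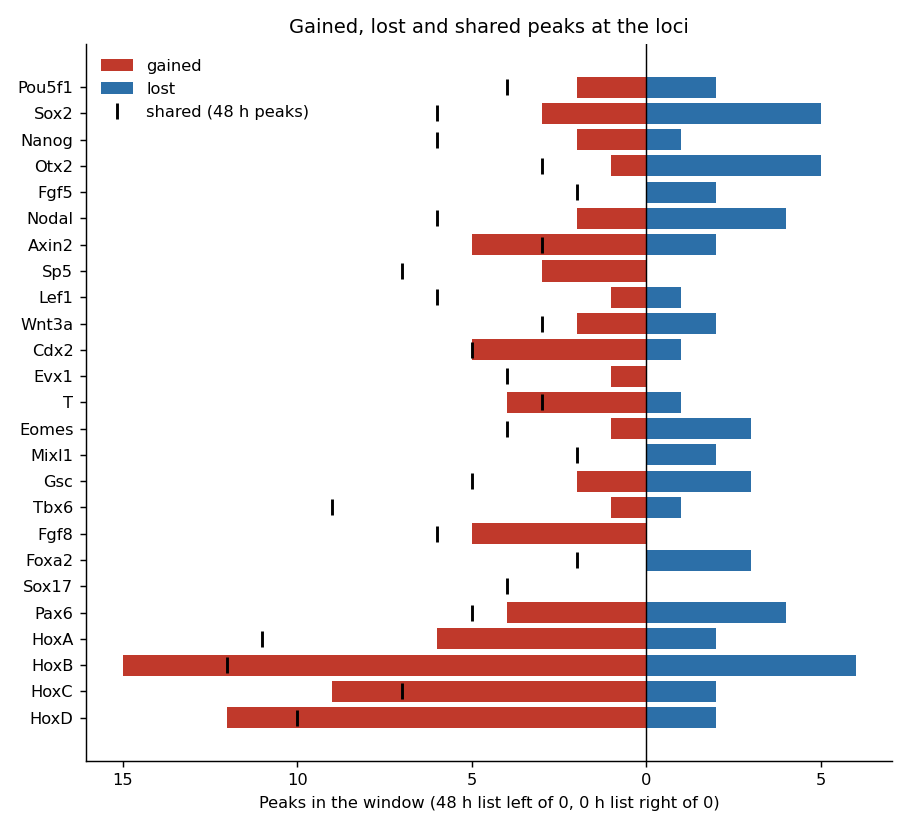
Number of peaks (horizontal axis) within 50 kb of the start of 21 genes and within the 4 Hox clusters (vertical axis), with gained peaks left of 0, lost peaks right of 0 and a tick for shared 48 h peaks. HoxB, with 15 gained and 6 lost peaks, and HoxD, with 12 and 2, have the longest bars, and Otx2 and Sox2 have 5 lost peaks each.

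The gene starts themselves mostly stayed open. Within 2 kb of the start, 18 of the 21 genes had a peak at both times, among them Pou5f1, Sox2 and Fgf5 of the epiblast list and Pax6, Sox17 and Foxa2 of other lineages, so an open start did not separate the lineages. Of all H3K4me3 regions, 94.1% were open at both times. Otx2 had a peak there at neither time. Its start was placed from knowledge of mm9, so a misplaced start cannot be told apart from a closed one. Wnt3a had one at 48 h only, at chr11:59104088-59104587 (4.07-fold, in the weakest quintile). Nanog had one at 0 h only, at chr6:122657291-122657779 (8.30-fold, in quintile 3). The 2 promoters whose state differed are shown for their contrast in base composition, from RefSeq in GRCm38.p6, a different build from that of the peaks. Each runs from 250 bases before the annotated start to 50 after it, at chr11:59290702-59291001 on the minus strand for Wnt3a and chr6:122707239-122707538 on the plus strand for Nanog, of which RefSeq lists another start nearby. Capitals mark matches to the motifs searched on both strands: CTTTGAA and CTTTGAT, which TCF/LEF factors bind, and TTTGCAT, part of the octamer that Oct4 binds.
Wnt3a: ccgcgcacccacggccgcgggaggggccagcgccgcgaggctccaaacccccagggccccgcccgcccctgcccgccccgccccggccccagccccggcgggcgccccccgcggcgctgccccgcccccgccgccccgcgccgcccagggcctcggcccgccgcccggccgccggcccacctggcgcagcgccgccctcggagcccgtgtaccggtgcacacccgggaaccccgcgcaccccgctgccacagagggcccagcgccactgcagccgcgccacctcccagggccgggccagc
Nanog: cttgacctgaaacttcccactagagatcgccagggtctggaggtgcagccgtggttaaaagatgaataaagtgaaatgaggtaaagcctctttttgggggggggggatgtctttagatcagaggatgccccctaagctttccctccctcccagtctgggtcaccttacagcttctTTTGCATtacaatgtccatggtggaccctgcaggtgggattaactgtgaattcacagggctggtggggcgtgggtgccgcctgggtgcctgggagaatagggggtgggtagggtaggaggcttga
The Wnt3a promoter was 86.3% G and C and the Nanog promoter 54.3%, against a median of 52.7% over 32851 promoters. Nanog held TTTGCAT once, and Wnt3a held none of the 3 motifs. Over all these promoters CTTTGAA was found in 5.14%, CTTTGAT in 3.73% and TTTGCAT in 4.63%, so the letters alone are a description and no sign of binding.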

How the data were processed

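Peak lists of single libraries were used as deposited, in mm9. Per the submitters' processing notes, ATAC-seq reads went through MACS2 2.1.0, SAMtools 0.1.19, Bowtie2 2.1.0 and cutadapt 1.8.1, and ChIP-seq reads through MACS2 2.1.0, SAMtools 0.1.19 and Bowtie 1.1.0, listed without their roles. Tools for the wild-type H3K27ac libraries at 24 h, and the background library of peak calling, were not given in the sources used here. The fold enrichment deposited by the authors is a ratio of signal to local background at the summit. Each deposited peak also has the −log10 p value, and the corrected −log10 q value, that the authors' caller assigned. The deposited score by the authors was found to be the −log10 p value times 10, cut to a whole number, and no result uses it. The deposited offset of the summit from the start of a peak was used to place summits. The lists hold no read counts, so the depth is unknown.

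Groups were taken from the labels. A pair of wild-type H3K4me3 libraries with contradictory labels was not used. Overlaps, shares and 95% Wilson intervals were computed in Python 3.11.15 with pandas 2.3.3 and scipy 1.17.1, and the overlap routine was tested on simulated intervals. Strength was ranked by −log10 p within a list only. Peaks were placed in tiles by their midpoint, on placed chromosomes. The members, gene lists and comparisons were chosen with earlier results of these data known. The loci named are all 21 listed genes, the 4 Hox clusters, and the 5 tiles and 5 peaks that lead each class, the peaks at least 100 kb from any input region; single peaks of a locus were chosen after their values were seen. Gene starts and Hox windows were recalled from knowledge of mm9, and each start had an H3K4me3 region of the Wnt3KO line within 2 kb. Alternatives were another overlap rule, a −log10 q of at least 5, equal list length, the 20000 strongest peaks, other tile sizes and single Polycomb replicates; equal length for the embryo, H3K27ac and Hox shares was added after the data were seen.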

Additional observations from a re-analysis of the deposited data

How the results depend on the processing

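Each EpiSC time had 1 library, the lists hold no read counts, and a peak missed at low depth cannot be told apart from closed chromatin. The ChIP-seq lists for H3K4me3, Ring1b and H3K27me3 came from another genotype than the ATAC-seq lists. No paired analysis was possible because no test was run and each time had 1 library.

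The gained and lost shares were 28.2% and 34.5% when an overlap had to cover at least 50% of the smaller peak, 32.0% and 37.4% when summits had to lie within 250 bp, 26.9% and 33.0% with a −log10 q of at least 5, 29.3% and 30.1% at equal list length, and 20.8% and 21.0% for the 20000 strongest peaks. The order of the shares was the same in all 5, by little in the last. Median lengths were 275 bp for gained and 282 bp for lost peaks with a −log10 q of at least 5, and 266 bp for gained and 292 bp for lost peaks at equal length. The shares in tiles with 3 or more peaks of the class were 24.7% gained and 21.0% lost with a −log10 q of at least 5, 28.5% and 16.8% at equal length, 14.2% and 10.2% in 50 kb tiles, and 44.9% and 44.4% in 200 kb tiles.

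At an overlap of at least 50%, H3K4me3 covered 1.68% of gained and 3.41% of lost peaks, and H3K27me3 0.824% and 1.08%. At equal length H3K4me3 overlapped 2.72% and 3.25%, Ring1b 1.04% and 0.481%, and H3K27me3 1.39% and 0.918%. The order of gained and lost turned round in the Polycomb lists at equal length, where the 0 h list was cut to its strongest peaks. The reason for this was not tested. Without either replicate of the Polycomb lists, Ring1b overlapped 0.814% to 0.977% of gained and 0.939% to 1.104% of lost peaks, and H3K27me3 1.23% to 1.51% of gained and 1.46% to 2.06% of lost peaks. Of all alternative values, 28 stayed within the 95% interval of the value reported and 40 did not.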

Other observations

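Gained peaks were least frequent on the X chromosome, where they made up 17.6% of the 48 h peaks (15.2% to 20.3%), against 24.2% to 31.2% on the autosomes. Lost peaks made up 31.9% of the 0 h peaks on the X chromosome, within the autosomal range of 25.3% to 38.5%. Between the E6.0 replicates, the shares without a counterpart on the X chromosome were 24.2% for replicate 2 (25.3% to 30.1% on the autosomes) and 21.9% for replicate 1 (18.0% to 25.2%).

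The H3K27me3 list of Wnt3KO EpiSCs after 72 h of CHIR99021 overlapped 0.373% of gained peaks and 1.30% of lost peaks, with 3150 regions in 1 library. Both were below the whole lists, at 1.95% of all 48 h and 2.43% of all 0 h peaks. The 0 h regions of both H3K27me3 replicates had overlapped 1.06% of gained and 1.36% of lost peaks. The Ring1b list at 72 h held 604 regions and overlapped 0.115% of gained and 0.186% of lost peaks, against 0.734% of all 48 h and 0.714% of all 0 h peaks.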
